A study of Mus musculus with 6 samples.

Results

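Glutathione and antioxidant genes were followed as a set of 36 genes that make, recycle or use glutathione, remove peroxides and superoxide, repair oxidized proteins or carry the Nrf2 response, in lenses of newborn mice with and without heat shock factor 4 (Hsf4). A gene was measured by a probe set, a group of short oligonucleotides on the array, and only probe sets annotated to that gene symbol and no other were used. This gave 60 probe sets for 33 of the 36 genes, out of 22626 probe sets and 12393 genes on the array, and each gene was read from its probe set with the highest mean. Prdx1 was not read because its probe sets also name another gene, and no probe set was named for Prdx5 or Prdx6 here. The 2 groups were wild type and Hsf4 null, each with 3 arrays of newborn lens and both labelled as strain ICR. The methods call the 3 arrays of each genotype biological triplicates. The sources used here state neither which part of Hsf4 the null allele lacks nor how many lenses went into an array.

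Glutathione is the main small thiol of the lens, where it keeps the long-lived crystallins of the fiber cells reduced and clear. It is built by glutamate-cysteine ligase and glutathione synthetase, spent by peroxidases and transferases, and returned to its reduced form by glutathione reductase. Thioredoxin, glutaredoxin and the peroxiredoxins form a parallel thiol system, and many genes of both are known targets of Nrf2, a transcription factor that Keap1 holds back until oxidants or electrophiles release it. Hsf4 is a heat shock factor of the lens, needed for the late steps of fiber differentiation.

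The labels and the arrays were checked first. The probe set of Hsf4 itself read 9.09, 9.39 and 9.56 on the log2 scale in the wild-type lenses and 4.26, 4.09 and 3.78 in the Hsf4-null lenses. Median log2 intensities of the 6 arrays were 5.22 to 5.38, and log2 values correlated at 0.991 to 0.994 within a genotype and at 0.982 to 0.990 between genotypes. Of the lens markers, Bfsp1, a beaded filament protein of fiber cells, and Dnase2b, the nuclease that clears their nuclei, fell in the Hsf4-null lenses, by 1.65 and 1.24 on the log2 scale. The other 7 measured fiber markers, crystallins, Mip and Gja3, were not called and lay between -0.14 and 0.02. The summed linear intensity of 9 measured fiber markers was 105407 to 108541 in wild-type and 94205 to 99472 in Hsf4-null lenses. Without Bfsp1 the fiber sums overlapped, at 94904 to 98599 and 91110 to 95956. The sum of 11 epithelial markers was 16710 to 18746 in wild-type and 16324 to 19626 in Hsf4-null lenses. Their log2 differences ran from -0.44 for Npnt to 0.39 for Notch1, with 3 above 0 and 0 called. Of the 11, 3 lay below the array medians, Foxe3 (-0.38) among them. Here and in what follows, this means a mean over the 6 arrays under the lowest array median, 5.22, although single arrays can lie above it. In whole lenses, fewer cells of a type and less RNA per cell cannot be told apart.

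In newborn lenses without Hsf4, no gene of the set passed the test for a change at the probe set by which it was read. By limma, with Benjamini-Hochberg adjustment over all probe sets and a threshold of 0.05, 0 of the 33 genes passed as lower and 0 as higher in the absence of Hsf4, beside 2.11% of all measured genes called lower and 0.775% called higher. At an unadjusted limma p under 0.05 there were 5 of 33 (15.2%), with Gsr, Gstp1 and Glrx higher and Gss and Prdx4 lower, beside 15.7% of all genes. The 3 arrays of one genotype lay wholly above or below those of the other for 6 of 33 genes (18.2%), the same 5 and Prdx2, beside 21.7% of all genes. Both shares were near those of the whole array.

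The log2 difference between genotypes, Hsf4-null minus wild-type, had a median of 0.04 over the 33 genes, against 0.01 over all genes, and ran from -0.39 for Gstt1 to 0.65 for Glrx. Estimates were above 0 for 21 of the 33 genes (63.6%, against 51.3% of all genes). The 95% intervals reached a median of 0.28 to either side of the estimate on the log2 scale, from 0.21 to 0.82. They lay wholly inside a 2-fold change in either direction for 31 genes (93.9%, against 93.1% of all genes) and inside a 1.5-fold change for 23 (69.7%, against 72.9%). For 4 of the 33 genes, Slc7a11, Gstt1, Mgst3 and Sod3, the mean of the probe set lay below the lowest array median and says little about the transcript. Without them the counts were 27 and 20 of 29 genes (93.1% and 69.0%), against 90.6% and 69.8% of all genes above that median. Gpx7 and Glrx were the 2 genes whose intervals crossed a 2-fold increase. A smaller change than these intervals allow was not detectable with 3 arrays per genotype. The intervals are not adjusted for the number of probe sets, so passing the adjusted test took a larger change. Those of Gss, Gsr, Gstp1, Prdx4 and Glrx excluded 0, and none of these genes passed. When each array was left out in turn, the estimate kept its sign for 24 genes and turned for 9, namely Slc7a11, Gpx1, Gpx7, Srxn1, Msra, Sod3, Cat, Nfe2l2 and Keap1.

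**Figure D1:**
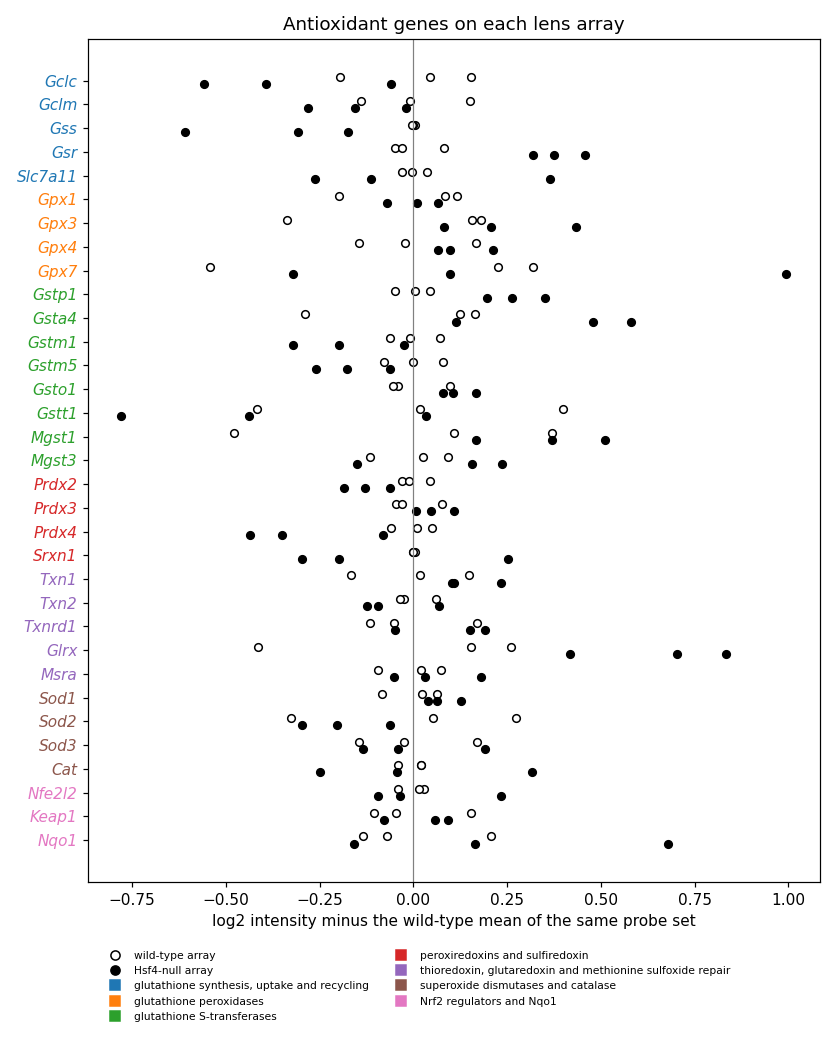
Each point is one array's log2 intensity of a gene minus the mean of the 3 wild-type arrays for the same probe set, with open circles for wild-type and filled circles for Hsf4-null lenses and gene names coloured by role. Filled circles lie wholly to the right of the open ones for Gsr, Gstp1 and Glrx and wholly to the left for Gss, Prdx2 and Prdx4, and both kinds overlap for the other 27 genes.

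**Figure D2:**
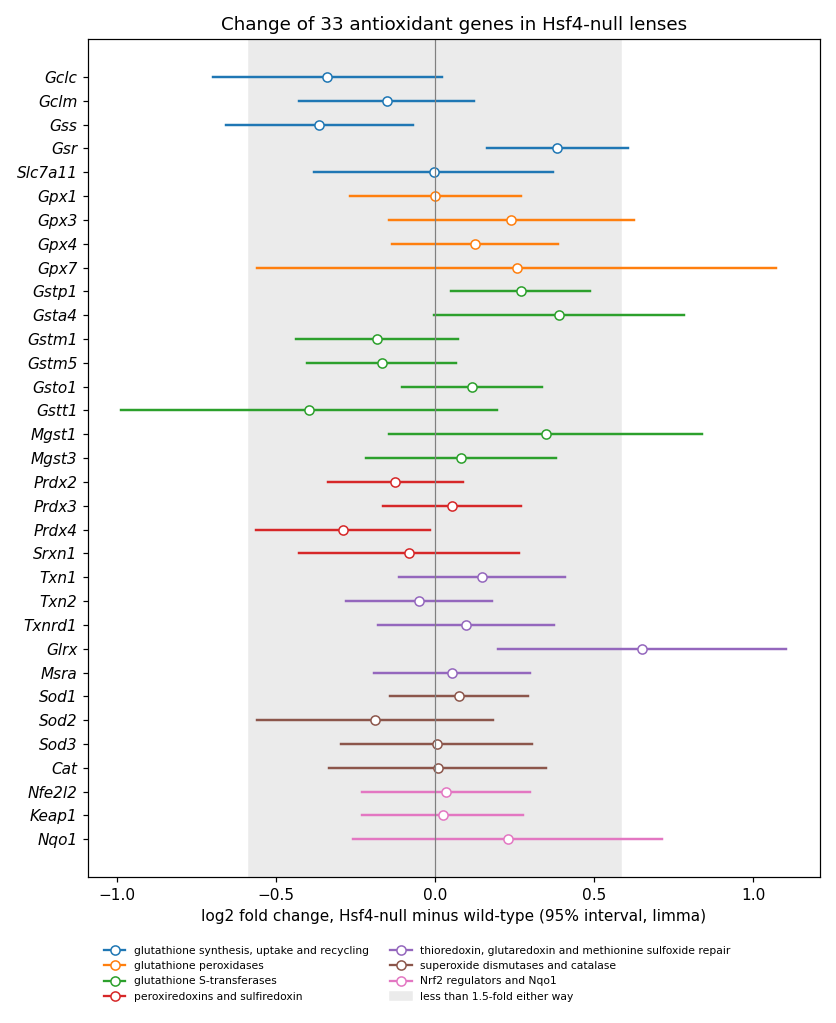
Circles give the log2 fold change of each of the 33 genes, Hsf4-null minus wild-type, and lines its 95% interval from limma (n = 3 per genotype); the grey band marks changes of less than 1.5-fold. The interval excludes 0 for Gss, Gsr, Gstp1, Prdx4 and Glrx, none of which passed after adjustment, and 23 intervals lie inside the band.

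The genes of glutathione synthesis and recycling did not share a direction. Glutathione synthetase (Gss), which adds glycine in the last step, read 10.67, 10.67 and 10.66 in wild-type and 10.36, 10.49 and 10.06 in Hsf4-null lenses on the log2 scale. All 3 Hsf4-null arrays were lower, and the wild-type arrays lay close together, with an SD of 0.005 against 0.22 in Hsf4-null lenses (n = 3 each). The difference was -0.36 (standard error 0.13, adjusted p = 0.227 by limma). Glutathione reductase (Gsr), which returns oxidized glutathione to the reduced form, went the other way, at 10.40, 10.42 and 10.53 in wild-type and 10.77, 10.91 and 10.83 in Hsf4-null lenses. The groups were apart by more than the spread within either, with a difference of 0.38 (standard error 0.10, 95% interval 0.16 to 0.61). Its adjusted p of 0.0955 by limma was the lowest among the 33 genes and did not pass. With variances shrunk toward a trend in intensity (limma's trend and robust setting), Gsr and Gstp1 passed, at adjusted p values of 0.0241 and 0.0268.

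Glutamate-cysteine ligase sets the rate of the pathway. Its catalytic subunit Gclc read 7.13, 7.37 and 7.48 in wild-type and 6.77, 7.27 and 6.94 in Hsf4-null lenses, and one Hsf4-null array lay inside the wild-type range. The difference was -0.34 (standard error 0.16, adjusted p = 0.357 by limma), and the second Gclc probe set gave -0.24. The modifier subunit Gclm differed by -0.15 (standard error 0.12), with overlapping arrays. Slc7a11, the cystine importer that feeds the pathway, lay below the median of every array at 4.26 to 4.89 over all 6 arrays.

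The glutathione peroxidases, which reduce peroxides with glutathione, overlapped between genotypes in all 4 cases. Gpx1, the cytosolic enzyme, was bright and closely matched, at 11.89, 12.21 and 12.17 in wild-type and 12.02, 12.16 and 12.10 in Hsf4-null lenses. Its difference of 0.001 had a 95% interval of -0.27 to 0.27. Gpx4, which reduces lipid peroxides in membranes, differed by 0.13 (standard error 0.11), and a second, also bright Gpx4 probe set by -0.06. Gpx3, the secreted enzyme, differed by 0.24 (standard error 0.17), and by 0.07 without wild-type replicate 3. Gpx7, an enzyme of the endoplasmic reticulum, was the least steady of the 33 genes: its arrays read 6.57, 6.47 and 5.71 in wild-type and 7.24, 5.93 and 6.35 in Hsf4-null lenses, and its difference of 0.26 had a standard error of 0.35 and ran from -0.11 to 0.55 when 1 array was left out.

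Of the 8 glutathione S-transferases, which couple glutathione to electrophiles, 5 had estimates above 0. Gstp1, the pi class enzyme, read 12.87, 12.93 and 12.97 in wild-type and 13.19, 13.27 and 13.12 in Hsf4-null lenses. Each Hsf4-null array was above each wild-type array, and the difference was 0.27 (standard error 0.09, adjusted p = 0.227 by limma). Gsta4, an alpha class enzyme known for clearing lipid aldehydes, read 9.96, 9.92 and 9.51 in wild-type and 10.38, 9.91 and 10.27 in Hsf4-null lenses. The groups overlapped through a single Hsf4-null array, and the difference was 0.39 (standard error 0.17, adjusted p = 0.329 by limma), or 0.25 without wild-type replicate 3. The membrane-bound Mgst1 differed by 0.35 (standard error 0.21), with the lowest wild-type array at 8.70 and the other 5 arrays between 9.29 and 9.69. Without that array it was 0.11.

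The mu class enzymes leaned the other way without passing. Gstm1 differed by -0.18 (standard error 0.11) and Gstm5 by -0.17 (standard error 0.10), with overlapping arrays for both. Of the further probe sets of Gstm1, the bright pair gave -0.26 and -0.15. The transcripts of this family are alike in sequence, and the Gstm1 probe set used belongs to a class on this array that can bind related transcripts, so the share of each mu gene in it is uncertain. Of the mu class genes outside the set, Gstm2 differed by -0.57 (adjusted p = 0.0825 by limma) and Gstm6 by -0.50. Gstm7 differed by -0.11, Gstm4 by -0.04 and Gstm3 by 0.05. None of these passed, and the means of Gstm6 and Gstm3 lay below the lowest array median. Gstm6 read 5.50, 5.52 and 5.25 in wild-type, each above that median, and 5.09, 4.55 and 5.12 in Hsf4-null lenses. The omega class gene Gsto1 differed by 0.12 (standard error 0.10). Gstt1, of the theta class, and Mgst3 lay below the array medians by their means, at -0.39 (standard error 0.25) and 0.08 (standard error 0.13). On wild-type replicate 2 Gstt1 read 5.53, above them.

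The peroxiredoxins, which destroy peroxides through a reactive cysteine, were measured for 3 genes. Prdx4, the peroxiredoxin of the endoplasmic reticulum, read 10.44, 10.55 and 10.51 in wild-type and 10.42, 10.15 and 10.06 in Hsf4-null lenses. The groups were apart, though by only 0.02 between the nearest arrays, and the difference was -0.29 (standard error 0.12, adjusted p = 0.297 by limma). The other Prdx4 probe sets gave -0.23 and -0.19. Prdx3, the mitochondrial member, differed by 0.05 (standard error 0.09), with all 6 arrays within 0.15. Sulfiredoxin (Srxn1), which repairs overoxidized peroxiredoxins, read 6.33, 6.34 and 6.33 in wild-type and 6.04, 6.59 and 6.13 in Hsf4-null lenses, so its Hsf4-null arrays lay on both sides of a narrow wild-type range.

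Prdx2, the abundant cytosolic peroxiredoxin, gave 2 answers. Its bright probe set, by which the gene was read, was at 12.09, 12.16 and 12.11 in wild-type and 12.06, 11.94 and 11.99 in Hsf4-null lenses. That is a difference of -0.13 (standard error 0.09, adjusted p = 0.571 by limma). The dimmer probe set was at 5.996, 6.61 and 6.07 in wild-type and 8.65, 8.65 and 8.71 in Hsf4-null lenses. All 3 Hsf4-null arrays stood far above all 3 wild-type arrays. The difference of 2.45 (standard error 0.17, 95% interval 2.06 to 2.83, adjusted p = 0.0003 by limma), a 5.45-fold increase, was the only call among the 60 probe sets of the 33 genes, beside 2.66% of all probe sets called in either direction.

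Both Prdx2 probe sets carry no other gene symbol in the platform's annotation, the bright one through a RefSeq messenger RNA and the dimmer one through a single complementary DNA clone. What the dimmer probe set detects was not tested, so its increase is given here as a measurement of that probe set alone. The measured genes next to Prdx2 in RefSeq gene order showed no such change. Of the 10 nearest on either side, 0 were called, and their log2 differences ran from -0.32 to 0.29 on one side and from -0.15 to 0.50 on the other. Prdx2 is also a red cell protein. Of 8 listed red cell markers 4 were measured, all 4 with means below the lowest array median and 0 called. Single Hsf4-null arrays of Alas2 (5.52 and 5.62) and Slc4a1 (5.64) lay above the array medians. Alas2 and Slc4a1 differed by 0.61 and 0.72, and Hba-a1 and Epb42 by -0.14 each. The summed linear intensity of these markers was 74.0 to 88.3 in wild-type and 102 to 121 in Hsf4-null lenses. Their part in the dimmer probe set's value was not tested.

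Of the 33 genes, 19 had more than 1 probe set. Apart from Prdx2, probe sets of one gene that were both above the lowest array median differed by at most 0.18 in their log2 difference. Such a pair or more was present for 11 genes, Prdx2 included. Of the 60 probe sets, 17 lay below that median.

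**Figure D3:**
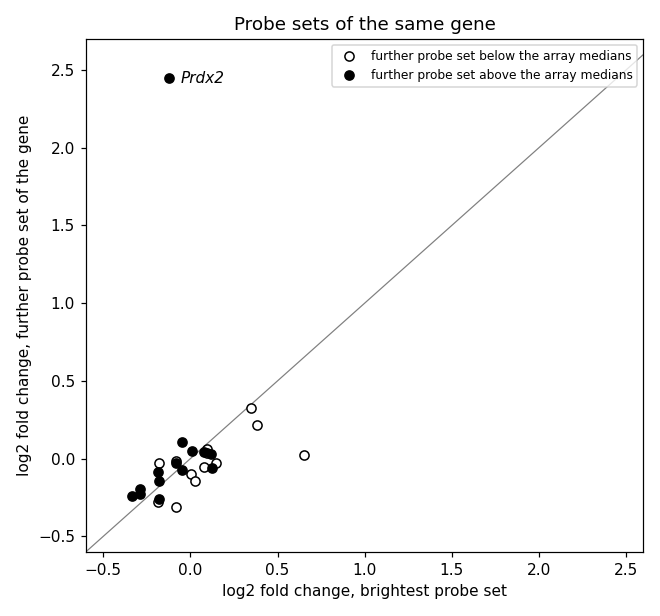
Each point is a further probe set of a gene, with the log2 fold change of the gene's brightest probe set on the horizontal axis and its own on the vertical axis, filled where the further probe set lies above the lowest array median; the line marks equal change. Prdx2 stands apart at -0.13 and 2.45, and the other filled points lie within 0.18 of the line.

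Thioredoxin and glutaredoxin reduce disulfides of proteins to thiols. Cytosolic thioredoxin (Txn1) differed by 0.15 (standard error 0.11) and mitochondrial thioredoxin (Txn2) by -0.05 (standard error 0.10). The cytosolic thioredoxin reductase (Txnrd1), which supplies Txn1 with electrons, differed by 0.10 (standard error 0.12). Msra, which repairs oxidized methionine, differed by 0.05 (standard error 0.11). In these 4 genes the arrays of the genotypes overlapped.

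Glutaredoxin (Glrx), which removes glutathione from protein thiols, had the largest estimate among the 33 genes. It read 6.16, 6.27 and 5.59 in wild-type and 6.71, 6.43 and 6.84 in Hsf4-null lenses. The groups did not overlap, the nearest arrays being 0.16 apart, and the difference was 0.65 (standard error 0.20, 95% interval 0.20 to 1.10, adjusted p = 0.162 by limma). Without wild-type replicate 3 it was 0.44. The second Glrx probe set, below the array medians, gave 0.02 (standard error 0.24).

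Of the superoxide dismutases and catalase, none passed, and the arrays of both genotypes overlapped for all 4. Sod1, the cytosolic copper-zinc enzyme, read 13.42, 13.46 and 13.31 in wild-type and 13.52, 13.43 and 13.46 in Hsf4-null lenses, a difference of 0.08 with a 95% interval of -0.14 to 0.29. Catalase (Cat), the peroxisomal enzyme that splits hydrogen peroxide, differed by 0.01, although one Hsf4-null array stood at 10.84 and the other 5 between 10.28 and 10.55. Sod2, the mitochondrial manganese enzyme, differed by -0.19 (standard error 0.16), with a spread of 9.81 to 10.41 among the wild-type arrays alone, and by -0.05 without wild-type replicate 3. Sod3, the extracellular enzyme, lay below the array medians.

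Some of the spread among arrays was shared between genes, a pattern noticed after the values were seen. Wild-type replicate 3 was the lowest of its group and Hsf4-null replicate 2 the lowest of its group for 9 of the 33 genes (27.3%), which were Gpx7, Gsta4, Gsto1, Mgst1, Mgst3, Txn2, Glrx, Sod1 and Keap1, against 16.1% of all genes. The same 2 arrays were the lowest for the summed markers of macrophages, pigment cells and retina. They were not both the lowest for the fiber, epithelial, red cell, vascular, mesenchyme or cornea and skin sums. The 12 macrophage markers summed to 550 to 1402 in wild-type and 996 to 1829 in Hsf4-null lenses, with all 12 estimates above 0, 0 called and 6 below the array medians, C1qa and Adgre1 among them. The 8 measured pigment cell markers summed to 3077 to 4178 and 3596 to 4913, with 3 below the medians, Tyr among them. Mitf, the brightest of them, differed by 0.03. Tyrp1, Dct and Pmel differed by 1.30, 1.30 and 1.27 (standard errors 0.46, 0.70 and 0.45). Of the 8 estimates, 7 were above 0, and 0 were called. The 9 retina markers summed to 257 to 1102 and 265 to 1289, with Crx, Rcvrn and Nrl below the medians. Their part in the values of Gsta4, Mgst1, Gpx7 and Glrx was not tested.

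Markers of other cells around the lens were compared as well. The 12 vascular markers summed to 1858 to 2532 in wild-type and 2648 to 2739 in Hsf4-null lenses, with 0 called and Pecam1 and Tie1 below the medians. The 10 measured mesenchyme markers summed to 704 to 973 and 1233 to 1428, with 4 below the medians, Twist1 among them. Col1a1 and Twist1 were called higher, and Col1a1 had the largest estimate of this list, at 1.89. Foxc1, Col1a2 and Col3a1 differed by 0.03, 0.07 and 0.17, and Prrx1 and Dcn by -0.13 and -0.09. Of the 10 estimates, 8 were above 0, and their median was 0.20. How far Col1a1 alone sets the sums apart was not tested. The 9 cornea and skin markers summed to 1542 to 1942 and 1707 to 2640, with 7 below the medians, Krt12 and Krt5 among them. Most of this sum was Perp, at 10.71, 10.33 and 10.68 in wild-type and 10.88, 11.22 and 10.55 in Hsf4-null lenses. Only 4 of the 9 estimates were above 0, and 0 were called. What these lists contribute to the estimates of Gsr, Gstp1 and Glrx was not tested.

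The genes of the set for the Nrf2 response, Nfe2l2, Keap1 and Nqo1, did not differ detectably. Regulators outside the set, of which Nfe2l1 and Nfe2l3 were called, are given further on. Nrf2 itself (Nfe2l2) read 7.66, 7.59 and 7.64 in wild-type and 7.59, 7.86 and 7.54 in Hsf4-null lenses, a difference of 0.04 with a 95% interval of -0.23 to 0.30. Its inhibitor Keap1 differed by 0.02 (95% interval -0.23 to 0.28). Nqo1, a quinone reductase and a widely used readout of Nrf2, read 6.20, 5.93 and 5.86 in wild-type and 6.16, 6.68 and 5.84 in Hsf4-null lenses. A single Hsf4-null array was high, and the difference was 0.23 (standard error 0.21), or 0.004 without that array. These are transcript levels, and the activity of Nrf2, which Keap1 sets at the protein, was not measured.

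Nrf2 is known to bind the antioxidant response element, whose core was searched as TGACNNNGC on both strands of RefSeq promoter windows of GRCm38.p6, from 250 bases before to 50 after the start. Of the 36 genes, 30 had a window, and 8 of these held the core (26.7%, against 14% of all genes with a window). Stretches from 6 of them follow, to show the element in genes that were not called here and in Prdx1, which was not read. Capitals mark the match, reading 5′ to 3′ on the gene's strand, with the reverse complement of the core in all but Nfe2l2.
Nfe2l2: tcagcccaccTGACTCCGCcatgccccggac
Gclm: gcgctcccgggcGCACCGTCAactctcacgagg
Txnrd1: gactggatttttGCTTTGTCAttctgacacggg
Mgst1: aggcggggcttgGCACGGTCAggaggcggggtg
Sod1: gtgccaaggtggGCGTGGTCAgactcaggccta
Prdx1: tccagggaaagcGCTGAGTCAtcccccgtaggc
The stretches lie at chr2:75704883-75704913 on the minus strand (Nfe2l2), at chr3:122245411-122245443 on the plus strand (Gclm) and at chr10:82859102-82859134 on the plus strand (Txnrd1). The other stretches lie at chr6:138140459-138140491 on the plus strand (Mgst1), at chr16:90220694-90220726 on the plus strand (Sod1) and at chr4:116685454-116685486 on the plus strand (Prdx1). In Prdx1 the match overlaps the AP-1 motif TGANTCA, which 5 of the 30 windows held (16.7%, against 8.97% of all genes).

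Heat shock factors bind inverted repeats of GAA, searched as the pair GAANNTTC on both strands of the same windows. It was present for 3 of the 30 genes, Mgst1, Sod1 and Prdx3 (10%, against 9.04% of all genes). Sod1 and Prdx3 are shown, the capitals marking the pair.
Sod1: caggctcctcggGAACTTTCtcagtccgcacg
Prdx3: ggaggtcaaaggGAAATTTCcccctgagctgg
These stretches lie at chr16:90220562-90220593 on the plus strand and chr19:60874699-60874730 on the minus strand. The log2 differences of these 3 genes were 0.35, 0.08 and 0.05, none of which passed. A match is a description of the letters in the window and not a binding site.

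Outside these 33 genes, a few genes of the same pathways did change. From lists of 107 further genes for glutathione turnover, transferases, peroxidases and thiol reductases, Nrf2 targets and NADPH supply, 88 were measured, of which 6 fell and 2 rose by limma at the threshold of 0.05, and the median log2 difference was -0.03. Over all genes, the shares that passed were the 2.11% and 0.775% given above. The lists were drawn up with earlier results of these data known.

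The largest change was in Hmox1, heme oxygenase, a target of Nrf2 and also of heat shock factors. It read 11.75, 11.99 and 11.98 in wild-type and 9.52, 9.31 and 9.37 in Hsf4-null lenses. All 3 Hsf4-null arrays were below all 3 wild-type arrays, and its log2 intensity fell by 2.50 (standard error 0.11, adjusted p = 5.12e-05 by limma), a 5.66-fold decrease. Macrophages are known to express Hmox1, and the part of their marker levels, given above, in this value was not tested. With Hmox1, 2 of the 25 measured genes in the list of Nrf2 regulators and targets fell, and 1 rose. Nfe2l1, a relative of Nrf2 known for its part in proteasome gene expression, rose from 9.66, 9.46 and 9.41 to 10.19, 10.28 and 10.24, by 0.72 (standard error 0.10, adjusted p = 0.0115 by limma), a call that was lost without wild-type replicate 2 (0.0583) or Hsf4-null replicate 3 (0.0537). Nfe2l3, another member of that family, lay below the array medians. Its brightest probe set fell by 1.05 (standard error 0.19, adjusted p = 0.0331 by limma), and its other 2 probe sets gave -0.03 and -0.06. The Nfe2l3 call was lost without wild-type replicate 2 or 3 or any single Hsf4-null array, at 0.0901 to 0.127.

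Of 14 measured genes for glutathione synthesis, turnover and transport, 1 rose, 1 fell and 12 did not pass. Chac1, which cleaves glutathione inside the cell and is a known target of the integrated stress response, read 4.07, 3.89 and 4.09 in wild-type and 5.17, 5.32 and 5.23 in Hsf4-null lenses. It rose by 1.22 (standard error 0.10, adjusted p = 0.000871 by limma), from below the array medians to about their level. Ggct, which acts on the gamma-glutamyl amino acids released from glutathione, fell by 0.89 (standard error 0.12), from 11.52, 11.61 and 11.62 to 10.73, 10.86 and 10.51. A second, dim Ggct probe set gave -0.25. Other enzymes of glutathione turnover on the list did not pass, with Chac2 at -0.06, Ggt5 at 0.23, Ggt7 at -0.06, Anpep at 0.07 and Dpep1 at 0.01. All of these lay below the array medians, so their values say little about the transcripts. None of 11 genes for NADPH supply passed, where Me1, the cytosolic malic enzyme, came nearest at -1.15 (standard error 0.24, adjusted p = 0.0534 by limma).

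Of 21 further peroxidases and thiol reductases, 2 fell and 19 did not pass. Sesn1, a sestrin linked to peroxiredoxin repair and to nutrient signalling, fell by 1.52 (standard error 0.13), from 10.31, 10.07 and 10.08 to 8.60, 8.83 and 8.46. Its other 2 probe sets fell by 1.32 and 1.56. Txndc12, a thioredoxin-like protein of the endoplasmic reticulum, fell by 0.96 (standard error 0.11), from 9.05, 8.98 and 9.06 to 8.23, 8.01 and 7.97. Among 17 further glutathione transferases, Gstk1, the mitochondrial and peroxisomal kappa class enzyme, fell by 0.68 (standard error 0.11, adjusted p = 0.0161 by limma), from 7.46, 7.33 and 7.50 to 6.87, 6.75 and 6.63. The Gstk1 call was lost without wild-type replicate 1 or 3 or Hsf4-null replicate 2 or 3, at adjusted p values of 0.0518 to 0.07. In Sesn1, Txndc12 and Gstk1 the arrays of the genotypes did not overlap. Of the 17 further transferases, 10 lay below the array medians.

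**Figure D4:**
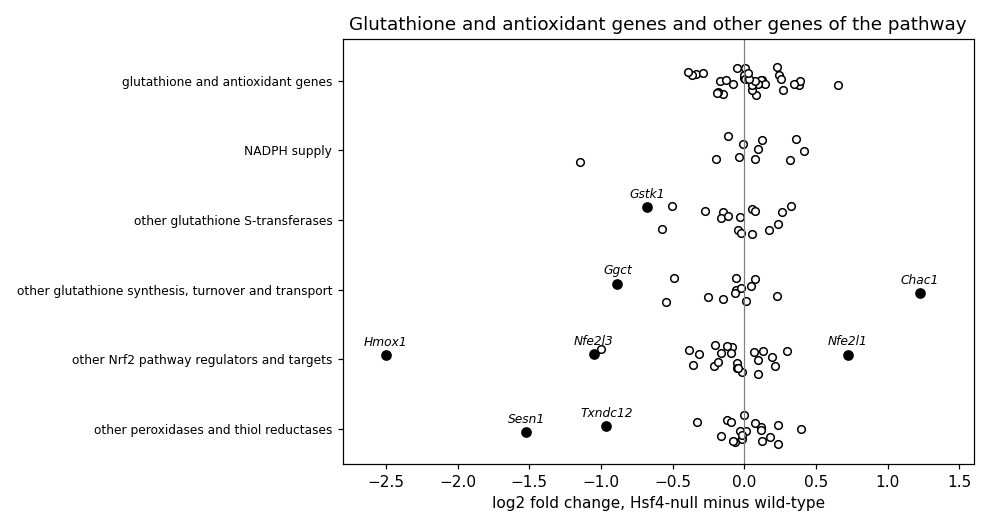
Each point is a gene, placed by its log2 fold change (Hsf4-null minus wild-type, from 3 arrays per genotype), with 1 row for the 33 glutathione and antioxidant genes and 1 for each list of other pathway genes; filled points passed an adjusted p of 0.05 by limma, and vertical offsets within a row only separate points. All 33 points of the top row are open and lie between -0.39 and 0.65, and the 8 filled points in the other rows run from -2.50 for Hmox1 to 1.22 for Chac1.

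**Figure D5:**
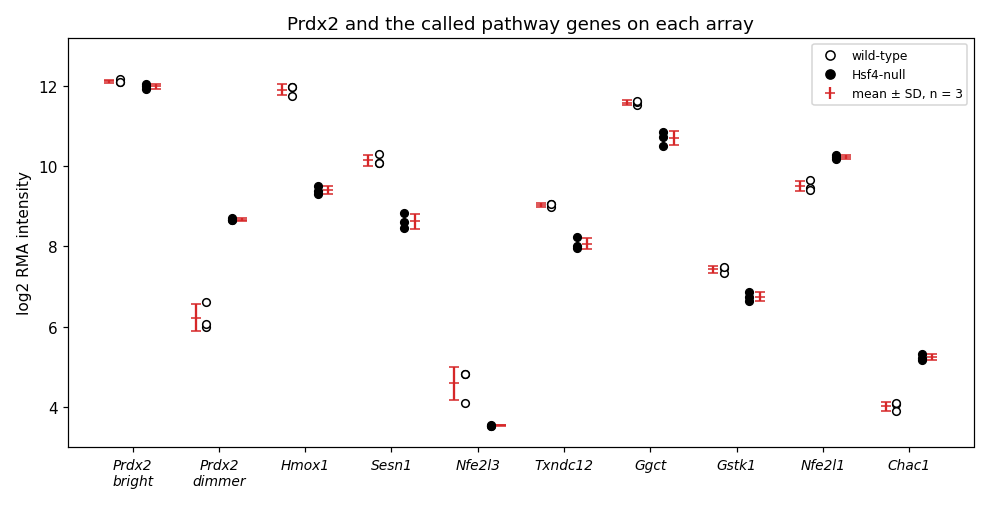
Log2 RMA intensity on each array for the pair of Prdx2 probe sets and the 8 called genes of the other lists, with open circles for wild-type, filled circles for Hsf4-null and bars for mean ± SD (n = 3). The dimmer Prdx2 probe set goes from 5.996 to 6.61 in wild-type up to 8.65 to 8.71 in Hsf4-null lenses, against 11.94 to 12.16 over all 6 arrays for the bright one. Heights are not comparable between probe sets.

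Nqo1, Prdx2, Hmox1 and Gsr lie on the chromosome that carries Hsf4. Among 646 measured genes on it, 45 lay between Nqo1 and Hsf4, 98 between Prdx2 and Hsf4, 150 between Hmox1 and Hsf4 and 318 between Gsr and Hsf4. Linkage was not tested.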

How the data were processed

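Newborn mouse lenses of 2 genotypes were measured on 6 Affymetrix mouse arrays, 3 per genotype, each from 50 ng of amplified total RNA. Background correction, scaling between arrays and the joining of probes were done by the authors with RMA, whose version the sources used here do not state, and the deposited values are linear intensities from 7.19 to 21211.

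Here log2 was taken and 22626 of 22690 probe sets, without 64 array controls, were compared between the 2 groups by lmFit and eBayes of limma 3.58.1 (R 4.3.3) with Benjamini-Hochberg adjustment over all of them. Of these, 20380 carry 1 gene symbol, 691 several and 1555 none here, and 20351 symbols were updated by gene identifier to RefSeq of GRCm38.p6. A gene was read from its probe set with the highest mean. All 36 genes were named by rule, with Hsf4 and, from each other list, up to 4 called genes in each direction. Members and lists were chosen with earlier results of these data known. Precision is limited by the number of arrays, and an exact permutation test of 3 against 3 arrays cannot go below 0.1. The procedure was tested on simulated data.

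The alternatives were the methods' t-test with and without adjustment, a replicate block, trended and robust variance, array weights, median centring and quantile normalization. Further settings were 1 probe set per gene, leaving out dim probe sets, a minimum fold of 1.5, the probe set of lowest adjusted p, and leaving out each array. The methods required both a t-test and significance analysis of microarrays, which was not run here. Counts from the t-test alone are therefore not those of the study's criteria.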

Additional observations from a re-analysis of the deposited data

How the results depend on the processing

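The count of glutathione and antioxidant genes called lower was 0 in every setting run except the methods' t-test without adjustment, which called 2 (Gss and the bright Prdx2 probe set). The count called higher was 0 except for 2 with that t-test and 2 with trended and robust variance (Gsr and Gstp1 in both), and 1 with the probe set of lowest adjusted p (Prdx2). Of the other pathway genes, 6 lower and 2 higher, the t-test gave 15 and 8 without adjustment and 1 and 1 after Benjamini-Hochberg. The filter on dim probe sets, which left Chac1 and Nfe2l3 untested, gave 6 lower and 1 higher among these genes. The replicate block gave 4 lower and 1 higher there and 0 and 0 among the 33 genes. Same-numbered arrays did not deviate together (correlations of 0.25, -0.21 and -0.08), so the number was not taken to pair them. Leaving out 1 array gave 4 to 6 lower and 1 to 2 higher, and 0 for the 33 genes each time. Over all probe sets, 439 lower and 163 higher became 1708 and 1204 with the t-test, 63 and 22 after its adjustment, 268 and 114 with the block, 589 and 246 with trended and robust variance, 266 and 100 with 1 probe set per gene, and 226 to 385 and 94 to 177 without 1 array. Fewer tests explain the counts with 1 probe set per gene. For the other settings the cause was not tested. No estimate of a named gene changed sign where it was called.

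The calls of 3 genes changed when single arrays were left out. Gstk1 did not pass without wild-type replicate 1 or 3 or without Hsf4-null replicate 2 or 3 (adjusted p 0.0518 to 0.07 by limma), nor with the block (0.0589). Nfe2l1 did not pass without wild-type replicate 2 (0.0583) or Hsf4-null replicate 3 (0.0537), nor with the block (0.0522). Nfe2l3 did not pass without wild-type replicate 2 or 3 or any 1 Hsf4-null array (0.0901 to 0.127), nor with the block (0.0593). After the adjusted t-test Hmox1 and Chac1 kept their calls, and the dimmer Prdx2 probe set (0.0565), Sesn1, Txndc12 and Ggct did not. The log2 difference of that Prdx2 probe set was 2.33 to 2.64 over all settings.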
